A study of Mus musculus with 4 samples.

Results

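The 10 genes described here are early response genes of 5 families that many cells use when growth factors, stress or inflammatory signals reach them. They are Ier2, Ier3 and Ier5 (immediate early response genes), Btg1 and Btg2 (antiproliferative B-cell translocation genes), Gadd45a and Gadd45b (growth arrest and DNA damage genes), the polo-like kinases Plk2 and Plk3, and the serum- and glucocorticoid-regulated kinase Sgk1. They were chosen by name and not by a measured value, though with earlier results of these data known. They are 10 of the 55536 annotated genes. RNA came from the cytosolic fraction of bone marrow-derived macrophages, primary cells grown out of the marrow of C57BL/6J mice, 15 minutes after lipid A was added at 100 ng/ml. Lipid A is the part of bacterial lipopolysaccharide that Toll-like receptor 4 recognises. Total RNA depleted of ribosomal RNA was sequenced in 4 libraries that form 1 group. The labels number them as biological replicates 1 to 4 and name 1 donor record for all, and they do not say whether separate animals or cultures were used. The spread between the libraries, and each p-value, may therefore be technical. Sex and age were not collected, per the labels. Unstimulated cells and the nuclear fraction were not analysed here, so the values are levels at 1 time point, and whether lipid A raised or lowered a gene was not measured.

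Early response genes are transcribed within minutes of a signal because the transcription factors that act on them are already present in the cell. Most of their transcripts are short-lived. In macrophages, Toll-like receptor 4 activates NF-kB and the mitogen-activated protein kinases, which act on many such genes. The proteins of the 10 genes do different work: GADD45 proteins bind and activate a kinase upstream of p38 and JNK, BTG proteins bring the CCR4-NOT deadenylase to messenger RNA, and PLK2, PLK3 and SGK1 are protein kinases. IER2 and IER5 act in the nucleus on transcription, and IER3 modulates cell survival.

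Among the 4 libraries, replicate 1 stood apart. It held 30088678 expected counts over annotated genes, against 40282297 to 47961117 in the other 3. The 16 proliferation genes summed to 476 TPM (a length-corrected share of all transcripts) in replicate 1, against 115 to 161 TPM in the other 3, led by Pcna, the sliding clamp of DNA replication, and Mcm6, a helicase subunit. The 8 nuclear long noncoding RNAs divided the libraries differently. They summed to 369 TPM in replicate 1 and 287 TPM in replicate 2, against 1134 TPM in replicate 3 and 1083 TPM in replicate 4, led by Malat1 and Neat1. Small RNAs 7SL and 7SK took 61.0% to 69.7% of all TPM. All 16 macrophage markers were at 1 TPM or more, led by Lyz2 and Ctsd. Of the 50 markers of T cells, B cells, neutrophils, dendritic cells, NK cells, stroma and erythroid cells, 6 averaged at least 1 TPM: S100a9, S100a8, Ighm, Cd22, Ngp and Batf3, between 14.8 and 1.58 TPM. The NK cell marker Prf1 and the erythroid marker Hbb-bt were at 0 in every library. Stromal markers summed to 2.09 TPM in replicate 3, against 0.05 to 0.17 TPM in the other 3. Neutrophil markers were also highest there, at 40.7 TPM. The T cell, B cell and dendritic sums were highest in replicate 4, at 0.66, 12.5 and 3.14 TPM. The part of such cells in the levels of the 10 genes was not tested.

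The promoters of 5 of the 10 genes are shown, chosen by the results below. Plk3, Gadd45a, Gadd45b and Plk2 were called different in replicate 1 against the rest, and Ier3 had the highest mean level. Each run is the 250 bases before the gene's RefSeq start, 5′ to 3′ on the gene's own strand, in GRCm38.p6, the patched form of the mm10 assembly. For these 5 genes that start lies 0 to 29 bases from the start of the leading M21 transcript. Capitals mark motif matches on either strand. The run TGACG is a half-site of the cyclic AMP response element, and the full element TGACGTCA contains it. Where the capitals read TATAAA, as in Gadd45b, they mark a TATA box. The pentamer CCAAT is shown in Gadd45a, Gadd45b and Ier3 and is named for its letters. An E-box, whose letters are CACGTG, lies in Gadd45b. In Ier3 the capitals in the second part of the run mark an NF-kB site. The intervals are chr4:117133964-117134213 on the minus strand for Plk3, chr6:67037408-67037657 on the minus strand for Gadd45a, chr10:80929841-80930090 on the plus strand for Gadd45b, chr13:110394794-110395043 on the plus strand for Plk2 and chr17:35821463-35821712 on the plus strand for Ier3.
Plk3: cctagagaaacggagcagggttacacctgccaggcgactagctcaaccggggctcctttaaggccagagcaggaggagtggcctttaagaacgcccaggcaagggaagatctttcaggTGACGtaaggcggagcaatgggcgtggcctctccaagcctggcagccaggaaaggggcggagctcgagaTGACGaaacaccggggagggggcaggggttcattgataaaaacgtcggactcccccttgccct
Gadd45a: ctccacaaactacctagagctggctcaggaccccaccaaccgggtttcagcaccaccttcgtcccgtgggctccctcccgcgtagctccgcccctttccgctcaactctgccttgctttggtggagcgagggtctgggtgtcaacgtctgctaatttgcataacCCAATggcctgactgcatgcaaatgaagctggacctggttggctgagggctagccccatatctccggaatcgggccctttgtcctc
Gadd45b: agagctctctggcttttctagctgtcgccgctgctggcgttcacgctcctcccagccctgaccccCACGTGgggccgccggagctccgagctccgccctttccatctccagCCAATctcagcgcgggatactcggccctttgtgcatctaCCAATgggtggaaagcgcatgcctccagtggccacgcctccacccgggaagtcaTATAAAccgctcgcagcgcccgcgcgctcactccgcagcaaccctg
Plk2: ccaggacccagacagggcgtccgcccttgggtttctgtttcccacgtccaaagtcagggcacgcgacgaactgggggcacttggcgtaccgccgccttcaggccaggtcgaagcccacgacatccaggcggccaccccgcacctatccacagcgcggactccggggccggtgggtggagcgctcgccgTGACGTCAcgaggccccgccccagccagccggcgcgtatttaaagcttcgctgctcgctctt
Ier3: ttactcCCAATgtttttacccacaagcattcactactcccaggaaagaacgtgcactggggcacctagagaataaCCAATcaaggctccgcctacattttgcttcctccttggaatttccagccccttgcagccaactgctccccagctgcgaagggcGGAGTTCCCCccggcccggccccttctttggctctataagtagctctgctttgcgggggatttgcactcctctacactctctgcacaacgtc

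The RefSeq table held a promoter for 9 of the 10 genes. For Sgk1, which has 6 starts there, the window at the start of its leading isoform was used. The full cyclic AMP response element lay in the windows of Btg2 and Plk2, 166 and 62 bases before the start, and in 2.70% of the 10015 windows of detected genes, those averaging 1 TPM or more. Its half-site, counted with the full element, lay in 4 of the 9 windows, those of Btg1, Btg2, Plk2 and Plk3, and in 27.8% of windows of detected genes. The TATA box was found for Btg1, Gadd45b and Sgk1, at 26, 46 and 11 bases, and in 6.18% of windows of detected genes. The NF-kB site was found for Ier3 alone among the 9 and in 4.52% of windows of detected genes. A CCAAT box was present for 6 of the 9 and in 35.3% of the same windows. The E-box was present for Gadd45b and in 8.86%. All 9 windows held the GC box GGGCGG, not capitalised above, against 58.2% of windows of detected genes. The AP-1 site TGANTCA and the CArG box matched in none of the 9, and in 4.25% and 1.07% of windows of detected genes. All motifs were searched on both strands. These matches describe letters in the window and show no binding.

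The genes themselves were compact. Their median span from start to end was 3614 bp, against 23562 bp for 9639 protein-coding genes detected at a mean TPM of 1 or more, of which 24.3% spanned under 10 kb. Ier2 (chromosome 8, 84661331 to 84662852, minus strand) and Ier5 (chromosome 1, 155096361 to 155099636, minus strand) are single-exon genes in the M21 annotation, a structure found in 2.55% of detected genes. Ier3, Btg1 and Btg2 have 2 exons in their leading isoform, Gadd45a and Gadd45b have 4, Sgk1 has 12, Plk2 has 14 and Plk3 has 15. Sgk1 was the exception in span, at 117720 bp, where several alternative starts lie far upstream of the exons of its leading isoform.

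In the gene tables all 10 genes averaged at least 1 TPM, and their levels covered a wide range. The target tables put Plk3 below that, at 0.50 TPM. Ier3 averaged 69.8 ± 45.3 TPM (SD, n = 4), at the 93.8th percentile of the 10329 detected genes, and Plk3 averaged 1.09 ± 1.18 TPM, at the 1.22nd percentile. Between them stood Ier2 at 55.8 ± 31.1, Gadd45a at 48.6 ± 17.0, Plk2 at 39.7 ± 15.6, Gadd45b at 36.1 ± 21.4, Btg2 at 25.7 ± 16.6, Ier5 at 23.4 ± 4.60, Btg1 at 16.2 ± 5.88 and Sgk1 at 12.6 ± 7.51 TPM. The order of most neighbours was not kept in every library. Gadd45a exceeded Plk2, Ier5 exceeded Btg1, Btg1 exceeded Sgk1 and Sgk1 exceeded Plk3 in 4 of 4 libraries, each with p = 0.125 by an exact permutation of signs (two-sided, on log2(TPM + 1)), the smallest that 4 libraries allow, and 0.281 after adjustment over the 9 neighbouring pairs. The other 5 pairs kept their order in 2 or 3 libraries, with exact p from 0.25 to 1 (0.375 to 1 adjusted). In each of those 5 pairs the mean log2 difference, from -0.10 to 0.53, was smaller than its SD over the libraries, from 0.34 to 1.17. No pair could have reached 0.05 in this design, so the p-values show neither a difference nor its absence. Btg2 and Ier5 changed places between the mean and the log scale, where their mean difference was -0.10.

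**Figure D1:**
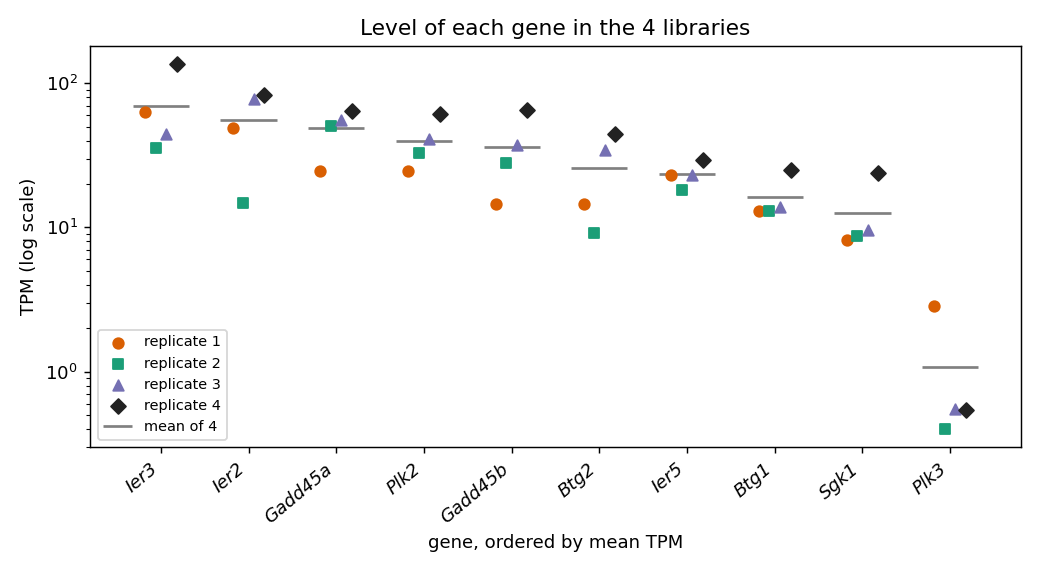
TPM of the 10 genes from the gene tables on a log axis, one symbol per library, with a grey bar at the mean of the 4 libraries. Replicate 4 is highest for 9 genes and replicate 1 for Plk3, while Ier5 and Btg1 have narrower spreads than Ier2.

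In TPM from the gene tables, replicate 4 was highest for 9 of the 10 genes and replicate 1 for the other, Plk3. Replicate 4 was also the highest library there for 53.5% of the 10329 detected genes. In the target tables replicate 1 was highest for Ier2 and Ier5 too, at 26.8 and 12.1 TPM, against 22.5 and 7.80 TPM in replicate 4. With 7SL and 7SK left out of the gene tables and TPM rescaled, replicate 4 was highest for 7 of the 10 genes, replicate 3 for 2 and replicate 1 for 1. The share over all detected genes was not computed on that scale, so these counts are a description only. On counts scaled by TMM, a normalization that balances most genes between libraries, the highest library was replicate 4 for 4 of the 10 genes, replicate 3 for 5 and replicate 1 for 1. Over all 14041 tested genes these libraries were highest for 25.7%, 19.6% and 41.4%. Fitted contrasts between libraries are given on TMM-scaled CPM, counts scaled to a common library size. Some levels by library are given in TPM. On that scale replicates 2 and 3 were lowest for 42.2% and 46.1% of detected genes.

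The 10 genes varied between libraries more than counting error alone gives. All 10 passed a Poisson deviance test at an adjusted p under 0.05, with 3.79e-51 for Ier5 the largest, but so did 82.8% of the 14041 genes tested. The median SD of log2 CPM over the 4 libraries was 0.67 for the 10 genes and 0.25 for all tested genes. It was 0.29 and 0.13 without replicate 1. Plk3, Ier2 and Btg2 had the widest spreads, with SDs of 1.15, 1.04 and 0.99, above those of 92.8%, 91.1% and 90.3% of tested genes. Ier5, whose product works with the heat shock factor HSF1, had the narrowest at 0.19, the 38.1st percentile.

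**Figure D2:**
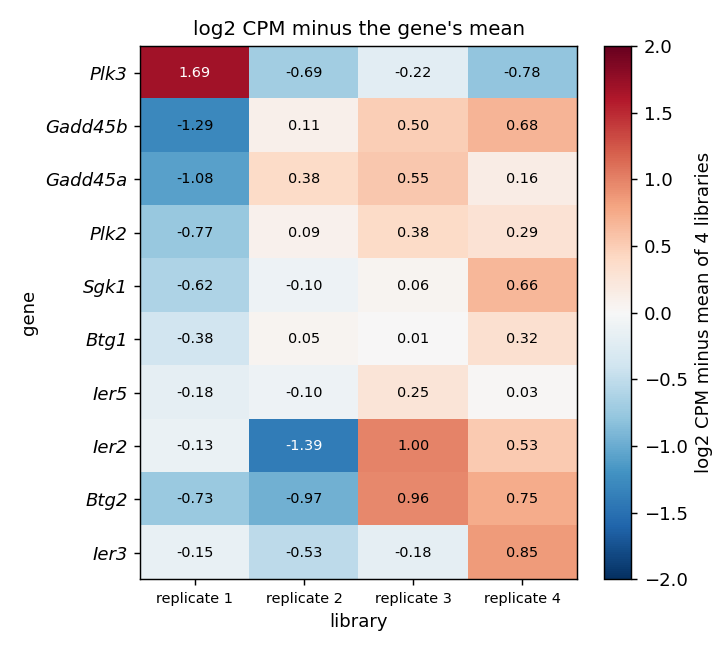
TMM-scaled log2 CPM of each gene in each library after subtracting the gene's mean over the 4 libraries, with the value written in each cell. Plk3 is high in replicate 1 at 1.69, Gadd45a, Gadd45b and Plk2 are low there at -1.08, -1.29 and -0.77, and Ier2 and Btg2 are above their mean in replicates 3 and 4.

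With 1 group, the contrasts that can be made set a single replicate against its fellow libraries. The 4 contrasts share the same libraries and are not independent of each other. In replicate 1, Plk3 was higher and Gadd45a, Gadd45b and Plk2 were lower than in replicates 2, 3 and 4 by the quasi-likelihood test of edgeR. That is 1 gene of 10 higher, where 14.5% of all 14041 tested genes were higher, and 3 genes of 10 lower, where 7.58% of all were lower. The median log2 fold was -0.69 over the 10 genes and -0.005 over all tested genes. The shares and the median over all tested genes are also the background for the lists of related genes below. In replicate 2, 3 or 4 against its other 3 libraries, the same test called none of the 10 genes and 0% of all genes. At an unadjusted p under 0.05 those 3 contrasts held 277, 135 and 104 genes, among them 1, 0 and 2 of the 10. DESeq2 called 8, 3 and 17 genes there, and none of the 10. The lone library in each contrast adds nothing to the estimate of spread, which assumes that it varies like its fellows.

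**Figure D3:**
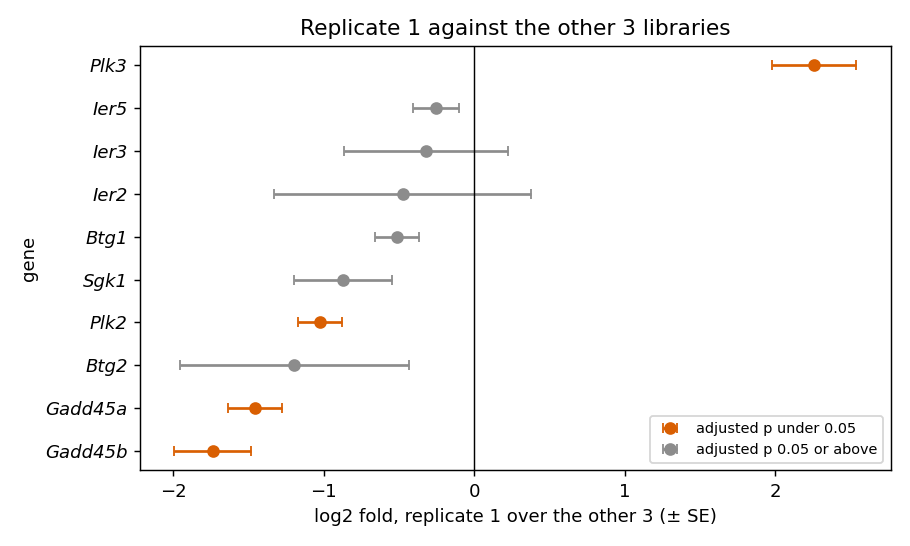
Log2 fold of each gene in replicate 1 over the other 3 libraries, with bars of 1 standard error, orange where the adjusted p was under 0.05. Plk3 lies at 2.26 on the higher side, and Plk2, Gadd45a and Gadd45b at -1.03, -1.46 and -1.74 on the lower side.

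Gadd45a and Gadd45b encode small acidic proteins that bind the kinase MAP3K4, the replication clamp PCNA and the cyclin B1-CDK1 complex. Gadd45a (chromosome 6, 67035096 to 67037457, minus strand) had 35.8 CPM in replicate 1, against 99.1, 111 and 84.6 CPM in replicates 2, 3 and 4. Gadd45b (chromosome 10, 80930073 to 80932204, plus strand) had 22.6 CPM in replicate 1, against 59.3, 77.9 and 88.5 CPM in the others. For both genes replicate 1 lay below the range of the other 3, which were close together for Gadd45a. The log2 fold of replicate 1 over the others was -1.46 ± 0.18 (SE) for Gadd45a, with an adjusted p of 0.00779 from edgeR's quasi-likelihood fit after Benjamini-Hochberg adjustment. For Gadd45b it was -1.74 ± 0.25, with an edgeR adjusted p of 0.0119. In TPM the levels were 24.7, 50.2, 55.2 and 64.5 for Gadd45a, and 14.6, 27.8, 37.2 and 65.0 for Gadd45b, in replicates 1, 2, 3 and 4. The third family member, Gadd45g, averaged 3.66 ± 1.37 TPM. Exons of Gadd45a overlap those of E230016M11Rik on the opposite strand by 337 bp. That gene averaged 0.31 TPM. No source used here says if reads were counted by strand, so reads of overlapping genes cannot be told apart.

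Among 12 genes of the GADD45 pathway, which are its kinases, PCNA and the cell cycle regulators it binds, 3 were higher in replicate 1, none was lower and the median log2 fold was 0.29. Cdk1, the mitotic kinase, had a log2 fold of 1.59 ± 0.18 (edgeR adjusted p 0.00684) and Pcna one of 1.14 ± 0.13 (edgeR adjusted p 0.00684). Both also belong to the proliferation genes. The cell cycle inhibitor Cdkn1a, next to Pcna the most abundant of the 12, had 97.3 TPM in replicate 1 and 58.3, 58.0 and 91.9 TPM in the others.

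The 2 polo-like kinases moved in opposite directions in replicate 1. Plk2, a centriole kinase and p53 target also called Snk, lies on chromosome 13 from 110395046 to 110400844 on the plus strand. It had 93.0 CPM in replicate 1, against 168, 206 and 194 CPM in replicates 2, 3 and 4. Replicate 1 lay well below the 3 other libraries, with a log2 fold of -1.03 ± 0.15 (edgeR adjusted p 0.0110). In TPM it stood at 24.5, 32.7, 40.8 and 60.9 in replicates 1, 2, 3 and 4.

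Plk3, a kinase of the stress and cell cycle responses, lies on chromosome 4 from 117128655 to 117133963 on the minus strand. It had 294 expected counts in replicate 1, against 80, 91 and 78 in the others, and 9.20 CPM against 1.73, 2.42 and 1.62 CPM. In TPM, replicate 1 stood at 2.85 and the other 3 lay between 0.40 and 0.55, so replicate 1 stood clear of the rest. A count of 3, the limit that a count of 0 would allow, corresponds to 0.015 to 0.029 TPM for Plk3, so the gene was detected in all 4 libraries. The log2 fold was 2.26 ± 0.28 (edgeR adjusted p 0.00822). The mean of 1 TPM rests on replicate 1, since without it the mean was 0.50 ± 0.08 TPM. Exons of Plk3 overlap those of Tctex1d4 on the opposite strand by 84 bp, and that gene averaged 0.52 TPM.

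Proliferation genes moved with Plk3. Of the 16 tested, 15 were higher in replicate 1 and none was lower, with a median log2 fold of 1.68. The largest folds were those of Mcm5 at 2.98 ± 0.12 (edgeR adjusted p 0.00142) and Rrm2 at 2.70 ± 0.12 (edgeR adjusted p 0.00155), a helicase subunit and the small subunit of ribonucleotide reductase. Pcna had 185 TPM in replicate 1, against 64.4, 65.2 and 80.7 TPM in the others, and Mcm6 had 55.4 TPM against 8.80, 9.63 and 11.6 TPM. Markers of cell identity moved less uniformly in replicate 1. Of the 16 macrophage markers 3 were higher, among them the integrin gene Itgam at 1.02 ± 0.10 (edgeR adjusted p 0.00532), and 1 was lower, the receptor kinase gene Mertk at -0.81 ± 0.15 (edgeR adjusted p 0.0234). Another of the macrophage markers that were higher was the complement gene C1qa, at 1.00 ± 0.13. The B cell markers summed to 3.56 TPM in replicate 1, against 6.52 to 12.5 TPM in the other 3. That sum largely followed Ighm, at 0.59 TPM against 3.09 to 8.44 TPM, while Cd22 was near level at 2.26 TPM against 2.21 to 2.87 TPM. Ighm was called lower, with a log2 fold of -3.39 ± 0.44. The neutrophil markers summed to 20.9 TPM, against 26.0 to 40.7 TPM. Among them S100a9 and Ngp had lower TPM, at 9.44 against 13.5 to 21.2 TPM and 1.45 against 1.89 to 4.05 TPM. No neutrophil marker was called by the edgeR test in replicate 1. S100a8, at 9.25 TPM, lay within the 8.97 to 13.0 TPM of the other 3. The part of proliferating or other cells in the levels of Plk3, Gadd45a, Gadd45b and Plk2 in replicate 1 was not tested. In bulk RNA, fewer cells of a type and less RNA per cell cannot be told apart.

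Over the relatives of the 10 genes, 8 of 11 were tested, 1 was higher in replicate 1 and none was lower. The one was Plk4, the kinase of centriole duplication, at 1.46 ± 0.16 (edgeR adjusted p 0.00661). The most abundant relatives were Sgk3 at 11.9 ± 3.11 TPM and Tob2 at 9.62 ± 2.44 TPM. Btg4, Plk5 and Sgk2 were at 0 in all 4 libraries.

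Btg1 and Btg2 lie on chromosome 10 (96617006 to 96622809, plus strand) and chromosome 1 (134075170 to 134079120, minus strand). Btg2 had 55.2, 47.0, 178 and 154 CPM in replicates 1, 2, 3 and 4. Replicates 3 and 4 stood well above replicates 1 and 2, which leaves no library alone, and with all 4 libraries in the fit no contrast passed the test for Btg2. Replicate 1 over the others gave -1.20 ± 0.76 (edgeR adjusted p 0.318). Btg1 was steadier, with 90.3, 122, 118 and 146 CPM. Replicate 1 was its lowest library, and its log2 fold over the others, -0.51 ± 0.15, missed the threshold (edgeR adjusted p 0.0669). In TPM from the gene tables, Btg1 was near level in replicates 1, 2 and 3, at 13.1, 13.0 and 13.8. It stood at 25.0 in replicate 4. The target tables gave 8.06, 5.36, 4.38 and 9.02 TPM in replicates 1, 2, 3 and 4.

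The CCR4-NOT complex shortens the poly(A) tails of messenger RNA and is the partner that BTG proteins bind. Of 13 genes of the complex and its BTG partners, 4 were higher in replicate 1, none was lower, and the median log2 fold was 0.15. Those with the largest folds were Prmt1, a methyltransferase that binds BTG proteins, at 1.08 ± 0.09 (edgeR adjusted p 0.00367), and Cnot6, a deadenylase subunit, at 0.46 ± 0.09 (edgeR adjusted p 0.0218). Pabpc1, the poly(A)-binding protein, averaged 218 ± 56.8 TPM and the scaffold Cnot1 averaged 18.1 ± 3.98 TPM.

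The 3 Ier genes showed 3 patterns. Ier2 had 94.4, 39.3, 206 and 149 CPM in replicates 1, 2, 3 and 4, with replicate 2 lowest and replicate 3 highest. Its log2 fold in replicate 2 over the others was -1.93 ± 0.51, which did not pass the edgeR test across all genes (adjusted p 1.00). Without replicate 1, replicate 2 was lower than replicates 3 and 4 for Ier2 and Btg2, with log2 folds of -2.16 ± 0.22 (edgeR adjusted p 0.0310) and -1.81 ± 0.15 (edgeR adjusted p 0.0189), in a comparison that called 0.573% of 14306 genes.

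Malat1, a nuclear long noncoding RNA, had 306, 242, 984 and 941 TPM in the 4 libraries, and Neat1, the scaffold of paraspeckles, had 35.1, 25.0, 115 and 79.4 TPM. Across the 4 libraries Malat1 and Neat1 were thus higher in replicates 3 and 4, as Ier2 and Btg2 were. Xist and Firre were also higher there. Tug1 was not, with 18.9, 16.7, 17.3 and 25.1 TPM in replicates 1, 2, 3 and 4. Of the 8 nuclear RNAs, 6 were tested and none was called in any contrast. Their part in the levels of Ier2 and Btg2 was not tested.

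Ier3, which lies on chromosome 17 from 35821684 to 35822923 on the plus strand, had 172 CPM in replicate 4, against 85.9, 65.9 and 83.8 CPM in replicates 1, 2 and 3. Replicate 4 lay above the range of the rest, with a log2 fold of 1.13 ± 0.20 that did not pass the edgeR test across all genes (adjusted p 0.991). Ier5 had 106, 112, 144 and 123 CPM in replicates 1 to 4, and its largest log2 fold in any contrast was 0.33 ± 0.16, for replicate 3. In TPM, Ier2 stood at 48.7, 14.8, 77.3 and 82.6 and Ier5 at 23.2, 18.1, 23.1 and 29.4, a range of 5.57-fold for Ier2 and of 1.62-fold for Ier5.

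Sgk1, a kinase activated downstream of mTORC2 and PDK1, lies on chromosome 10 from 21882184 to 21999903 on the plus strand. It had 64.5 CPM in replicate 4, against 26.5, 38.3 and 42.6 CPM in replicates 1, 2 and 3. The log2 fold of replicate 4 over the others was 0.85 ± 0.29 (edgeR adjusted p 0.991), and that of replicate 1 was -0.87 ± 0.32 (edgeR adjusted p 0.124). Neither passed the test. In TPM it stood at 23.8 in replicate 4, against 8.15, 8.69 and 9.65 in the others.

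Of 14 regulators and substrates of SGK1, none was higher and 2 were lower in replicate 1, with a median log2 fold of 0.09. These were Foxo3, a transcription factor that SGK1 phosphorylates, at -0.79 ± 0.12 (edgeR adjusted p 0.0121), and Nedd4l, a ubiquitin ligase under its control, at -0.69 ± 0.09 (edgeR adjusted p 0.00918). The most abundant were Wnk1 at 114 ± 26.7 TPM and Usp9x at 39.3 ± 8.61 TPM. Of 10 genes linked to the glucocorticoid receptor, a known regulator of Sgk1, 1 was higher and 3 were lower in replicate 1. Fkbp5, a chaperone of the receptor, was higher at 2.24 ± 0.13 (edgeR adjusted p 0.00244). The clock gene Per1 was lower at -0.56 ± 0.13 (edgeR adjusted p 0.0375), and so was Tsc22d3, which encodes GILZ, at -0.55 ± 0.12 (edgeR adjusted p 0.0351). Tsc22d3 and Dusp1 had the highest means of the list, 32.1 ± 8.62 and 39.4 ± 17.2 TPM.

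Gadd45a, Btg2, Plk2 and Plk3 are also known targets of p53. Among 16 other p53 targets, 3 were higher and 4 were lower in replicate 1, with a median log2 fold of 0.12. The apoptosis genes Pmaip1 and Bbc3 were lower, at -1.61 ± 0.12 (edgeR adjusted p 0.00334) and -1.29 ± 0.23 (edgeR adjusted p 0.0192). Tigar, a regulator of glycolysis, was higher at 0.92 ± 0.19 (edgeR adjusted p 0.0286), and so was Aen, a nuclease, at 0.87 ± 0.12 (edgeR adjusted p 0.0112). Cdkn1a and Sesn1 were the most abundant, at 76.4 ± 21.2 and 59.0 ± 17.5 TPM.

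Early transcription factors are induced by the same kinds of signal. Of 16 tested, 2 were higher and 2 were lower in replicate 1, with a median log2 fold of -0.22. Myc, which drives growth, was higher at 2.84 ± 0.18 (edgeR adjusted p 0.00280), as was Fosl2 at 0.79 ± 0.17 (edgeR adjusted p 0.0326). Egr3 was lower at -4.18 ± 0.28 (edgeR adjusted p 0.00291), as was Atf3, a stress-responsive factor, at -1.02 ± 0.21 (edgeR adjusted p 0.0285). Fos and Junb were the most abundant, at 161 ± 73.0 and 109 ± 45.8 TPM. Fos had 158, 58.5, 216 and 211 TPM in replicates 1, 2, 3 and 4. Replicate 2 was thus lowest and replicates 3 and 4 were highest, as for Ier2. In TPM replicate 2 was the lowest library for 42.2% of detected genes. Replicates 3 and 4 were the highest for 1.38% and 53.5%.

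Likeness between profiles was measured as the Euclidean distance between centred log2 CPM values over the 4 libraries, among 10208 tested and detected genes. Within the 10 genes the closest pairs were Btg1 with Sgk1 (0.45), Btg1 with Ier5 (0.45) and Gadd45a with Plk2 (0.48), and the most distant were Gadd45b and Plk3 (3.48). For Plk3 the nearest genes were Mcm2, a subunit of the replicative helicase (0.17), Psat1, an enzyme of serine synthesis (0.18), and the linker histone gene Hist1h1a (0.22). For Btg2 they were Gm26532 (0.14), the nuclear noncoding RNA Firre (0.14) and Gm9821 (0.31). Gadd45a was nearest to Ntng2 (0.09), Rapgef3 (0.09) and Isg20 (0.11), and Gadd45b to Gm17251 (0.08), Dock3 (0.09) and Spic (0.21). Plk2 was nearest to Ppfibp2 (0.03), Ppp2r3d (0.06) and Gigyf1 (0.07), and Sgk1 to Tnfsf13 (0.07), Gm1821 (0.08) and Gm37560 (0.10). For Ier2 the nearest were Gm26316 (0.41), Gm20605 (0.46) and F630028O10Rik (0.49), none within 0.25. For Ier3 they were Gm47469 (0.18), Gm4149 (0.19) and Gm39469 (0.26). Ier5, nearest to Hectd4 (0.02), Thbs1 (0.05) and Sirt5 (0.06), and Btg1, nearest to Zfp810 (0.02), Mier1 (0.03) and Zkscan14 (0.05), had 771 and 563 genes within 0.25. With 4 libraries, and profiles that are nearly flat for the last pair, such likeness is a description only.

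The leading isoform, by the percent of a gene's expression that the authors' transcript tables assign to it, was the model numbered 201 for every gene. Ier2, Ier3, Ier5 and Btg2 have 1 transcript model each. The leading share was 93.0 ± 5.16% for Gadd45b, 92.6 ± 3.26% for Gadd45a, 92.1 ± 6.81% for Plk2, 91.8 ± 4.87% for Btg1, 88.3 ± 14.8% for Plk3 and 68.1 ± 4.70% for Sgk1 (SD, n = 4). Sgk1 was the most divided gene, with a second coding isoform, Sgk1-203, at 28.8%, 20.6%, 20.5% and 17.5% in replicates 1, 2, 3 and 4. The target tables, which the authors made directly from reads, gave Sgk1-203 only 4.76 ± 4.19% and put 17.4 ± 6.81% in the short model Sgk1-212, so the second isoform of Sgk1 differed between the tables. For Plk3, the leading model took 100% in replicates 1 and 2, 84.0% in replicate 3 and 69.3% in replicate 4, where few counts stand behind the split.

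Transcript models that keep an intron are annotated for Plk2, Gadd45a, Gadd45b and Sgk1. In replicate 4 they held 17.7% of the TPM of Plk2, against 3.31%, 3.18% and 7.38% in replicates 1, 2 and 3. For Sgk1 the share was 13.7% in replicate 4, against 3.93%, 3.34% and 4.56% in the others. For Gadd45a it was 12.1% in replicate 4, against 5.47%, 6.72% and 4.95%, and for Gadd45b it was 8.15%, against 1.78%, 1.94% and 4.01%. Replicate 4 had the highest share for all 4 genes, and in the target tables as well. Over all protein-coding genes the share was also highest in replicate 4, at 4.38%, against 2.96%, 2.86% and 3.79%. These shares were not tested across genes. By Dixon's criterion for 4 values, the transcript-table share of Sgk1 in replicate 4 stood apart from the other 3. Those of Plk2, Gadd45a and Gadd45b did not meet it. In the target tables the share of Sgk1 was 4.90%, 5.41%, 23.0% and 33.4% in replicates 1, 2, 3 and 4, so replicate 3 was high there too. Intron-keeping models can draw reads from unspliced RNA, and the part of such RNA was not tested.

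**Figure D4:**
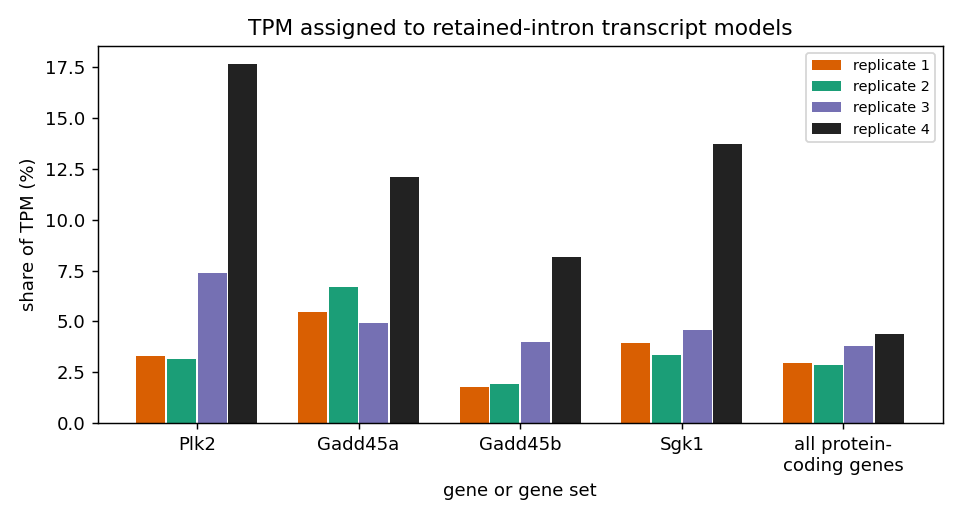
Percent of each gene's TPM that the authors' transcript tables assign to retained-intron models, in each of the 4 libraries, beside the share over all protein-coding genes. The single genes shown are those with such models, while the set of all protein-coding genes includes genes without them. Replicate 4 is highest in each set, at 17.7% for Plk2 and 4.38% over all protein-coding genes.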

How the data were processed

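Per the labels, 4 libraries of cytosolic RNA form 1 group. For each, the authors deposited a gene table with expected counts and TPM, a transcript table with each isoform's percent of its gene, and a target table with estimated counts and TPM. The texts deposited with them name mm10 and GENCODE M21. The names of the aligner and quantifiers were not given in sources used here. Features that name no gene held 0.0267% to 0.407% of expected counts and were left out. Totals were 30088678 to 47961117 expected counts, and floors of 3 counts cover counting error alone, as the labels describe no molecular identifiers, without which reads can be copies of the same molecule.

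Counts were rounded, and genes averaging 10 counts or more were scaled by TMM and tested with edgeR 4.0.16 (R 4.3.3), each replicate against the other 3, with Benjamini-Hochberg adjustment over 14041 genes per contrast and calls under 0.05. Standard errors come from the fold and the F statistic. Log2 CPM used a prior count of 2 and log2(TPM + 1) a pseudocount of 1. Alternatives were DESeq2 1.42.0 size factors and test, no filter, the target tables, TPM without 7SL and 7SK, and leaving out replicates. Promoters are from RefSeq. Python 3.11.15, numpy 2.4.6, pandas 2.3.3 and matplotlib 3.10.9 were used.

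All 10 genes are named whatever their value. From each list of related genes, the text names the 2 with the highest mean TPM and up to 2 higher and 2 lower with the largest folds among called genes at a mean of at least 1 TPM, and for each gene the 3 nearest profiles. The choice to show Fos by library was made after its values were seen. The genes and lists were chosen with earlier results of these data known, so their counts are descriptions and not independent evidence.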

Additional observations from a re-analysis of the deposited data

Results flagged for a closer look

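In 4 of 30 sets of 4 library values for the 10 genes (TPM, log2 CPM, leading isoform share and retained-intron share), 1 library lay far from the other 3, with a gap past Dixon's criterion for 4 values. Chance flags about 1 in 20 single sets. The 30 sets share genes and libraries, so the 4 flagged cannot be read as an excess over that rate. Plk3 stood at 2.85 TPM in replicate 1, against 0.40 to 0.55 TPM in the other 3. In replicate 4, Btg1 stood at 25.0 TPM, against 13.0 to 13.8 TPM, and Sgk1 at 23.8 TPM, against 8.15 to 9.65 TPM. These are values of the gene tables. In the target tables Btg1 had 8.06, 5.36, 4.38 and 9.02 TPM in replicates 1, 2, 3 and 4, with replicates 1 and 4 close. Sgk1 had 6.13, 3.71, 3.90 and 12.5 TPM there, and Plk3 had 1.49 TPM in replicate 1, against 0.15 to 0.19 TPM. The criterion was not applied to the target tables. The retained-intron share of Sgk1 in the transcript tables was 13.7% in replicate 4, against 3.34% to 4.56%. In the target tables it was 33.4% in replicate 4 and 23.0% in replicate 3, against 4.90% and 5.41% in replicates 1 and 2. On log2 CPM none of the 10 genes met the criterion, and replicate 4 was the highest library in TPM for 53.5% of detected genes.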

How the results depend on the processing

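The calls of Plk3 as higher and of Gadd45a, Gadd45b and Plk2 as lower in replicate 1 kept their direction and stayed under the threshold in all 7 alternatives run, with log2 folds of 2.07 to 2.45, -1.63 to -1.27, -1.88 to -1.62 and -1.10 to -0.88, and adjusted p up to 0.0116, 0.0120, 0.0291 and 0.0210. The number of the 10 genes called in replicate 1 was 4 and ranged from 4 to 7 when 1 of the other replicates was left out. It reached 7 without replicate 2, where Ier2, Btg2 and Sgk1 were called lower too and 22.4% of all genes were called, and 6 without replicate 4, where Btg1 and Sgk1 joined and 19.6% were called. DESeq2's test and the fit without a filter also called Btg1 and Sgk1, for 6 genes, beside 23.3% and 13.5% of all genes. In replicate 2 the number was 0 and ranged from 0 to 2 when a replicate was left out, with Ier2 and Btg2 called without replicate 1, beside 0.573% of all genes. The median SD of log2 CPM ranged from 0.29 without replicate 1 to 0.79 without replicate 4. In the fits without a replicate, the lone library is assumed to vary like the others, and why these counts moved was not tested.

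The level in TPM depended on the tables. From the target tables the means were 23.5 for Ier3, 18.7 for Ier2, 16.6 for Gadd45a, 13.5 for Plk2, 12.2 for Gadd45b, 8.25 for Btg2, 8.004 for Ier5, 6.71 for Btg1, 6.57 for Sgk1 and 0.50 for Plk3. After rescaling TPM over all genes but 7SL and 7SK they were 195 for Ier3, 159 for Ier2, 143 for Gadd45a, 115 for Plk2, 104 for Gadd45b, 73.4 for Btg2, 67.7 for Ier5, 46.5 for Btg1, 35.6 for Sgk1 and 3.04 for Plk3, by construction higher. The order of the 10 means was the same in both. In the target tables the leading isoform held 75.1% of Btg1, 85.5% of Gadd45a, 86.9% of Gadd45b and 50.5% of Sgk1, and the cause was not tested. No paired analysis was possible because the 4 libraries form 1 group. Depth limits Plk3, which rests on 78 to 91 expected counts in 3 of the 4 libraries.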
